A study of Mus musculus with 24 samples.

Results

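The mRNA abundance of 7 genes of PPAR alpha signalling and fatty acid oxidation was examined in colon and liver: Ppara, Cpt1a, Cpt2, Ehhadh, Acadm, Acadl and Pdk4. They were found by the gene name that the array files give to each probe, which gave 7 of the 27962 gene names on the array and 8 of its 41174 probes. Cpt1a had 2 probes and every other gene 1. The probe with the highest mean intensity was used for each gene, and the second Cpt1a probe is given beside it. The tissues came from 12 female C57BL/6 mice, 12 weeks old, whose mothers were fed a fat-rich diet poor in selenium and folate, begun 7 days before mating and kept up through pregnancy and suckling. After weaning at 28 days, 6 mice stayed on their mother's diet (HF-low-low) and 6 moved to one equally rich in fat that held enough of both nutrients (HF-low-suf). Each mouse gave 1 colon and 1 liver array, and per the study's methods the animals had been fasted and then fed again shortly before the tissues were taken. No group was fed a low-fat diet, so both diets compared were high in fat, and no group came from a dam on a sufficient diet.

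PPAR alpha is a nuclear receptor that binds fatty acids and, paired with the retinoid X receptor, switches on genes for burning fat. The liver is a main site of this programme: in fasting it takes up fatty acids, oxidises them in mitochondria and peroxisomes, and turns the acetyl-CoA into ketone bodies for other tissues. Long-chain fatty acids enter mitochondria through the carnitine shuttle, in which Cpt1a encodes the outer, rate-controlling enzyme and Cpt2 the inner one. Acadm and Acadl encode the medium-chain and long-chain acyl-CoA dehydrogenases, which begin each round of mitochondrial oxidation. Ehhadh encodes the bifunctional enzyme of peroxisomal oxidation. Pdk4 encodes a kinase that switches off pyruvate dehydrogenase and so spares glucose when fat is burned.

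In the array annotation, on mouse build mm7, the main probes lay at chr15:85883890-85883949 (Ppara), chr19:3280180-3280239 (Cpt1a), chr4:107280457-107280517 (Cpt2), chr16:21411280-21411339 (Ehhadh), chr3:153833272-153833331 (Acadm), chr1:67070807-67070866 (Acadl) and chr6:5436327-5436386 (Pdk4). The second Cpt1a probe lay at chr19:3279435-3279494. The Ppara, Cpt1a and second Cpt1a probes were on the plus strand and the others on the minus strand. No annotation of that build was used here, so exon and UTR positions are not given. The transcript accession on each of the 8 probes led to the same gene symbol in RefSeq.

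The RefSeq table of promoter windows (GRCm38.p6) held all 7 genes. The 250 bases before each start were searched on both strands for AGGTCA, the hexamer that nuclear receptors of this class recognise, and for AGGTCANAGGTCA, the same hexamer repeated after a spacer of 1 base, which is the form PPAR alpha binds. The windows of 2 of the 7 genes, Cpt1a and Acadm, held the hexamer once, and 14.0% of all 32851 windows held it. None of the 7 held the repeat with up to 2 mismatches, against 3.24% of all windows. The hexamer is part of the repeat, so the searches overlap. The 2 windows with a match are printed because they show where in a promoter the receptor's letters occurred, with the hexamer, read here on the opposite strand, in capitals.
Cpt1a promoter, chr19:3323051-3323300, plus strand: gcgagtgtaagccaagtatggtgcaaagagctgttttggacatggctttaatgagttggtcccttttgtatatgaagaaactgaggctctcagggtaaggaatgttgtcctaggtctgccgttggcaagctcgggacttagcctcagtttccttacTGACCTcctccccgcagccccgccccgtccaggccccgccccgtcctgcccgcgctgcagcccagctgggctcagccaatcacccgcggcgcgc
Acadm promoter, chr3:153944644-153944893, minus strand: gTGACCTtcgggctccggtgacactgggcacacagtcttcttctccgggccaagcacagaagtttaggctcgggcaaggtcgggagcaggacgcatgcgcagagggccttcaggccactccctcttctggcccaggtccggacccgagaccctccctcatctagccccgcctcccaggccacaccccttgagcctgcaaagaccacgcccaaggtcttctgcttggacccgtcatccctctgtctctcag
The hexamer began 94 bases before the start of Cpt1a and 249 bases before that of Acadm. The Acadm hexamer lay at the edge of the window, so a repeat reaching past that edge could not be found. Sequence outside the 250 bases was not searched for any gene.

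Each value is the log2 ratio of a mouse's sample (Cy3) to a pool (Cy5) on the same array, so 0 marks an equal signal in both dyes. The labels give the pool as equal parts of colon and liver RNA of all mice. The 8 skeletal muscle genes averaged -5.54 to -3.07 on the 24 arrays, far below 0 on every one, which a pool of only these samples would not give with equal dyes. The cause was not tested, so a single level is not read as above or below the tissues' average and results rest on differences between arrays. The pool was on the same dye on every array, which leaves any dye effect of a probe in its level but not in a difference between groups. Differences between diets computed in this direction ran opposite in sign to those the study lists. The direction used here follows the stated dyes, and the diets are as labelled. The tissue markers bear on sample against pool and on the tissues, not on the diets. With the diet labels exchanged, every diet difference and interaction given here would change sign. The 4 hepatocyte genes (Alb, Apoa2, Ttr and Tat) averaged at most -3.48 in any of the 12 colons, with liver medians of 1.84 (HF-low-low) and 1.80 (HF-low-suf). The 6 colon epithelium genes (Krt20, Cdx2, Lgals4, Car1, Muc2 and Vil1) averaged 0.70 to 1.21 in the colons and -5.01 to -3.84 in the livers, so each tissue carried its own markers. The share of Cy3 spots well above background ran from 26.1% to 71.9% across arrays. Of the 12 livers, that of HF-low-suf replicate 2 had the highest mean of 8 skeletal muscle genes (-3.07, against -5.14 to -4.19 in the other 11) and that of HF-low-suf replicate 1 the highest mean of 5 adipose genes (2.95, against -1.84 to -0.05). The liver array of HF-low-suf replicate 4 and the colon array of HF-low-suf replicate 5 had brighter reference signals, at 12.7 and 18.2 times background, than the other arrays at 5.43 to 7.62 times. On that liver array of HF-low-suf replicate 4, 8.75% of the spots were flagged as outliers, against 0.267% to 0.768% on the other 23 arrays. Results were recomputed without each mouse in turn. The 7 main probes were well above background on all 24 arrays, except that Pdk4 was so on 11 of 12 livers, and none was saturated.

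The first comparison was between liver and colon of the same mice. All but Pdk4 of the 7 genes were higher in liver than in colon. The 6 called genes (Benjamini-Hochberg adjusted P below 0.05 in limma) rose by 1.56-fold to 8.96-fold, and in each of them liver exceeded colon in 12 of 12 mice, which gave P = 0.000488 in the exact two-sided sign-flip test, the smallest it allows with 12 mice. Of all 41174 probes, 19.4% were called higher in liver and 19% lower. The share was larger among bright probes: in a fit kept to 19079 probes well above background, 13748 were called, both directions together. The median log2 difference was 1.27 over the 7 genes and 0.02 over all probes. In whole tissue, more cells of a type and more RNA per cell cannot be told apart.

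Ppara, the receptor itself, lay between 0.18 and 1.66 (median 0.96) in the livers and between -1.08 and 0.60 (median 0.09) in the colons. The tissues overlapped across mice, although in each mouse the liver was the higher. The log2 difference was 0.94 ± 0.17 (SE, n = 12 mice, adjusted P = 5.34e-05). Its probe was spotted 10 times on each array, and the spots of 1 array differed by a median SD of 0.04. The SD between mice of 1 diet was 0.51 in liver and 0.50 in colon, which also holds the variation of labelling and hybridisation between arrays.

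Cpt1a lay between 0.27 and 0.999 (median 0.63) in the livers and between -0.53 and 0.50 (median 0.02) in the colons. It showed the smallest of the 6 called differences, at 0.65 ± 0.11 (adjusted P = 1.30e-05). Its 10 spots differed by a median SD of 0.02. The second Cpt1a probe, with a single spot, gave 0.52 ± 0.22 and missed the threshold (adjusted P = 0.0678), with liver higher in 9 of 12 mice.

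Cpt2, the inner enzyme of the shuttle, was the steadiest of the 7 genes in liver. Its liver values lay between 0.94 and 1.40 (median 1.19), and its colon values between -0.52 and 0.28 (median -0.08), so the tissues did not overlap. The log2 difference was 1.27 ± 0.08 (adjusted P = 4.75e-13).

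Ehhadh, the peroxisomal enzyme, showed the largest difference of the 7. The livers lay between -0.01 and 1.73 (median 1.20) and the colons between -2.44 and -1.70 (median -1.99). Liver exceeded colon by 3.16 ± 0.13 on the log2 scale, 8.96-fold (adjusted P = 1.80e-17). The lowest liver, at -0.01, was the HF-low-suf replicate with the bright reference signal and the many flagged spots, and the other 11 livers lay at 0.80 or above.

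The 2 dehydrogenases of mitochondrial oxidation were each higher in every liver than in any colon. Acadm lay between -0.60 and 0.09 (median -0.32) in the livers and between -2.33 and -1.50 (median -1.91) in the colons, a difference of 1.67 ± 0.10 (adjusted P = 2.32e-13). Acadl lay between 0.68 and 1.35 (median 1.08) in the livers and between -0.64 and -0.04 (median -0.31) in the colons, a difference of 1.37 ± 0.09 (adjusted P = 1.87e-12).

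Pdk4 did not follow the other 6. It lay between -2.57 and 2.26 (median -1.38) in the livers and between -2.22 and -0.81 (median -1.57) in the colons. The log2 difference was 0.12 ± 0.30 (95% interval -0.50 to 0.74, adjusted P = 0.820), with liver higher in 6 of 12 mice. Except for 1 liver, Pdk4 lay below 0 on all 24 arrays, as did the mean of the 8 skeletal muscle genes. The part of muscle RNA in the Pdk4 level was not tested.

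**Figure D1:**
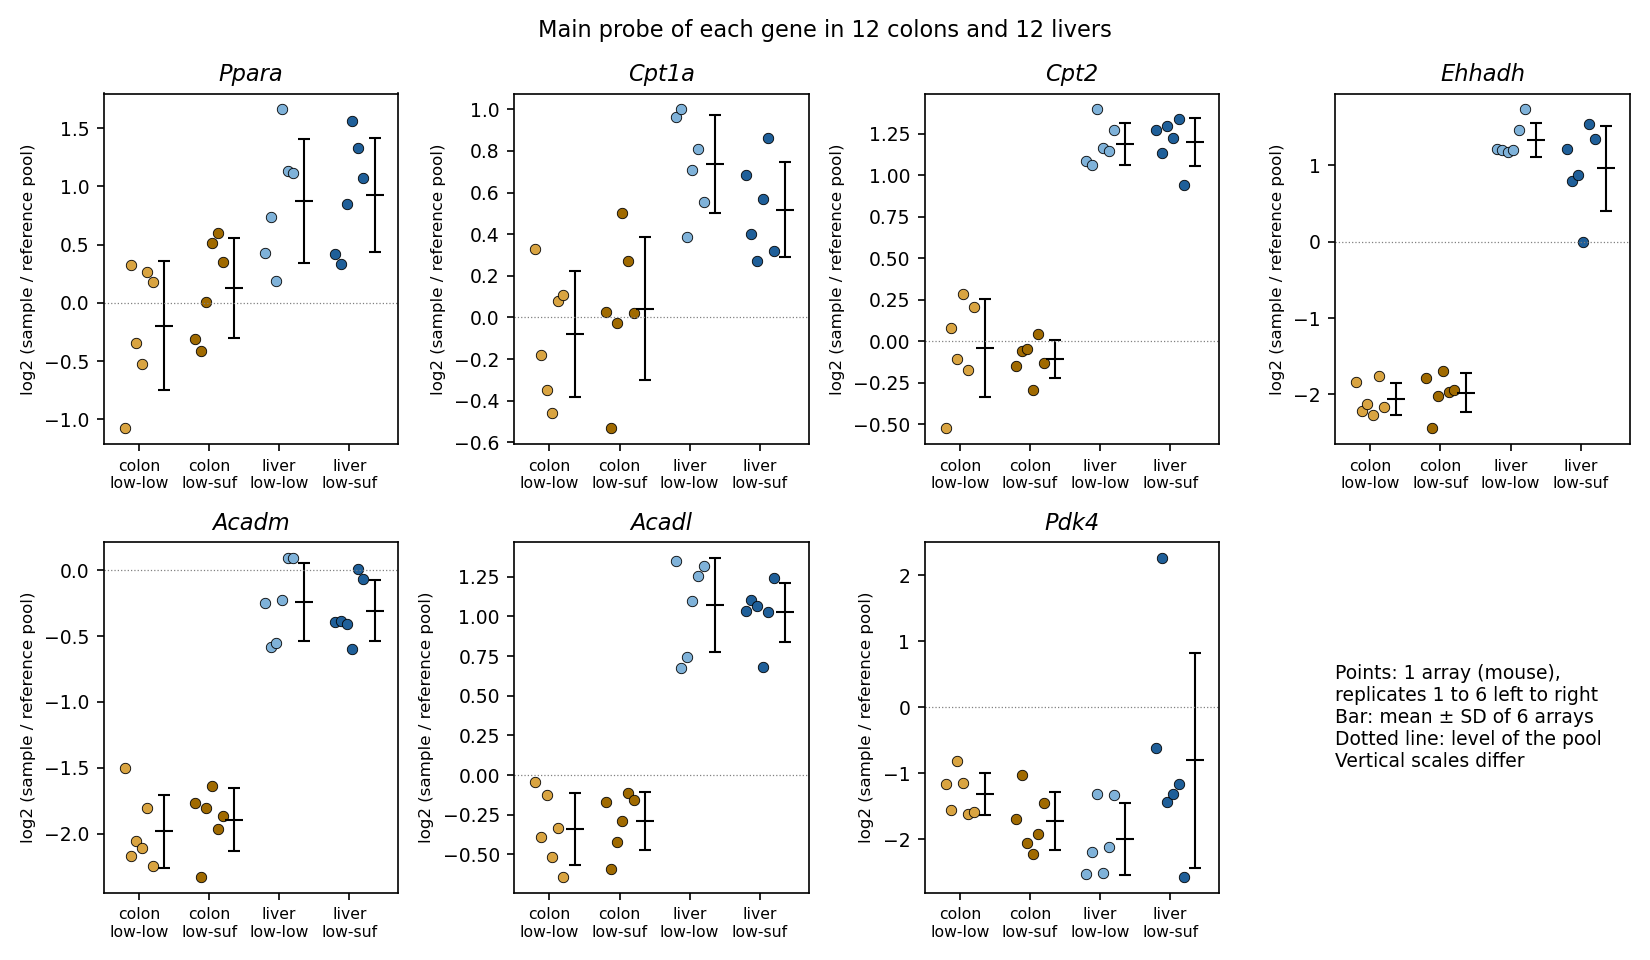
Log2 ratio of sample to reference pool (vertical axis) for the main probe of each of the 7 genes, 1 point per array in the 4 groups, with the mean and SD of 6 arrays as a bar. Liver and colon separate for Cpt2, Ehhadh, Acadm and Acadl, overlap for Ppara and Cpt1a, and for Pdk4 a single HF-low-suf liver stands at 2.26 while all other arrays lie at -0.61 or below.

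The call for 2 of these genes rested on the scaling. With arrays centred on their median in place of the intensity-dependent loess correction, the difference was 0.50 for Ppara (adjusted P = 0.0589) and 0.31 for Cpt1a (adjusted P = 0.0804), and 4 genes remained called.

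The 7 genes were set beside 72 other measured genes of the same pathways. Of these, 54 were higher and 11 lower in liver, with a median log2 difference of 1.12. Peroxisomal and omega oxidation were one-sided: all 11 and all 4 of their measured genes were higher in liver, although Abcd2 was well above background on only 1 colon and 5 livers. Pecr, a peroxisomal enoyl-CoA reductase, was higher by 3.42 ± 0.11 (adjusted P = 7.56e-20). Cyp4a14, which hydroxylates the far end of fatty acids, was higher in liver too (adjusted P = 1.55e-26), but its signal was well above background on only 2 of 12 colons, so no size is given. Cyp4a genes are near-identical in sequence, so a probe may also bind a relative's mRNA.

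Of the 13 other genes of mitochondrial oxidation, 12 were higher in liver and none lower. The largest difference was in Etfdh, which passes electrons on to the respiratory chain (2.03 ± 0.11, adjusted P = 1.63e-14). Acads, the short-chain dehydrogenase, gave -0.29 ± 0.18 (adjusted P = 0.246) and was not called. In the carnitine shuttle 5 of 8 were higher and 1 lower. Crot, which makes carnitine esters in peroxisomes, was higher by 3.43 ± 0.10 (adjusted P = 1.75e-20). Slc25a20, the carrier between the outer and inner enzymes, was higher by 0.65 ± 0.10 (adjusted P = 9.53e-06), and with median centring by 0.24 (adjusted P = 0.323). The lower one was Cpt1c (adjusted P = 0.0164), which was well above background on 1 colon and on no liver, so no fold is given.

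Among 10 genes of fatty acid uptake and activation, 7 were higher and 2 lower in liver. Fabp1, the liver fatty acid binding protein, differed by 8.23 ± 0.19 (adjusted P = 5.25e-23). Acsl1, which activates long-chain fatty acids, was higher by 2.60 ± 0.14 (adjusted P = 9.20e-15), whereas Acsl3 of the same family was lower by -1.75 ± 0.13 (adjusted P = 5.67e-12).

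Of the 5 genes of ketone body metabolism, 4 were higher and 1 lower in liver. Acat1, a mitochondrial thiolase, was higher by 1.43 ± 0.08 (adjusted P = 1.44e-14). Bdh1, which interconverts the ketone bodies, was higher by 1.02 ± 0.10 (adjusted P = 1.65e-09). Oxct1, which tissues need in order to use ketone bodies, was lower in liver by -3.32 ± 0.22 (adjusted P = 6.85e-13), a fold of 9.95 in favour of colon.

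The receptors and coregulators ran mostly the other way from Ppara. Of 7, only Rxra, the partner receptor, was higher in liver (1.08 ± 0.10, adjusted P = 1.64e-09), and 4 were lower. Ppard, counted among the 7, was well above background on only 1 colon and 1 liver. Pparg, the fat cell relative of Ppara, was lower by -1.42 ± 0.10 (adjusted P = 1.85e-12). Between the tissues its direction was that of 5 adipose genes, which averaged 1.42 to 3.55 in the colons and -1.84 to 2.95 in the livers. The 2.95 was the liver of HF-low-suf replicate 1, inside the range of the colons. Pparg was at most 0.74 in the livers and at least 1.37 in the colons. The part of the adipose genes in its difference was not tested. The coactivators Ppargc1a (-1.08 ± 0.16, adjusted P = 1.72e-06) and Ppargc1b (-1.36 ± 0.17, adjusted P = 1.81e-07) were lower too.

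Around pyruvate dehydrogenase 2 of the 4 other genes were higher and 2 lower. The kinase Pdk1 was higher in liver by 0.50 ± 0.12 (adjusted P = 0.00136). Pdk3, another of the kinases, was not well above background in any liver, and the colons were at least 2.48-fold higher (adjusted P = 1.14e-06). Of the 10 other PPAR alpha targets, 8 were higher and 1 lower. Fgf21, a hormone that the liver releases in fasting, was well above background on 10 livers and no colon, and was at least 2.57-fold higher in liver (adjusted P = 7.04e-08). Angptl4, an inhibitor of lipoprotein lipase, was higher by 0.99 ± 0.22 (adjusted P = 0.000608) and Acot1, a cytosolic thioesterase, by 3.77 ± 0.17 (adjusted P = 3.61e-16). Ucp2, a mitochondrial carrier, was lower by -1.59 ± 0.12 (adjusted P = 8.11e-12).

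**Figure D2:**
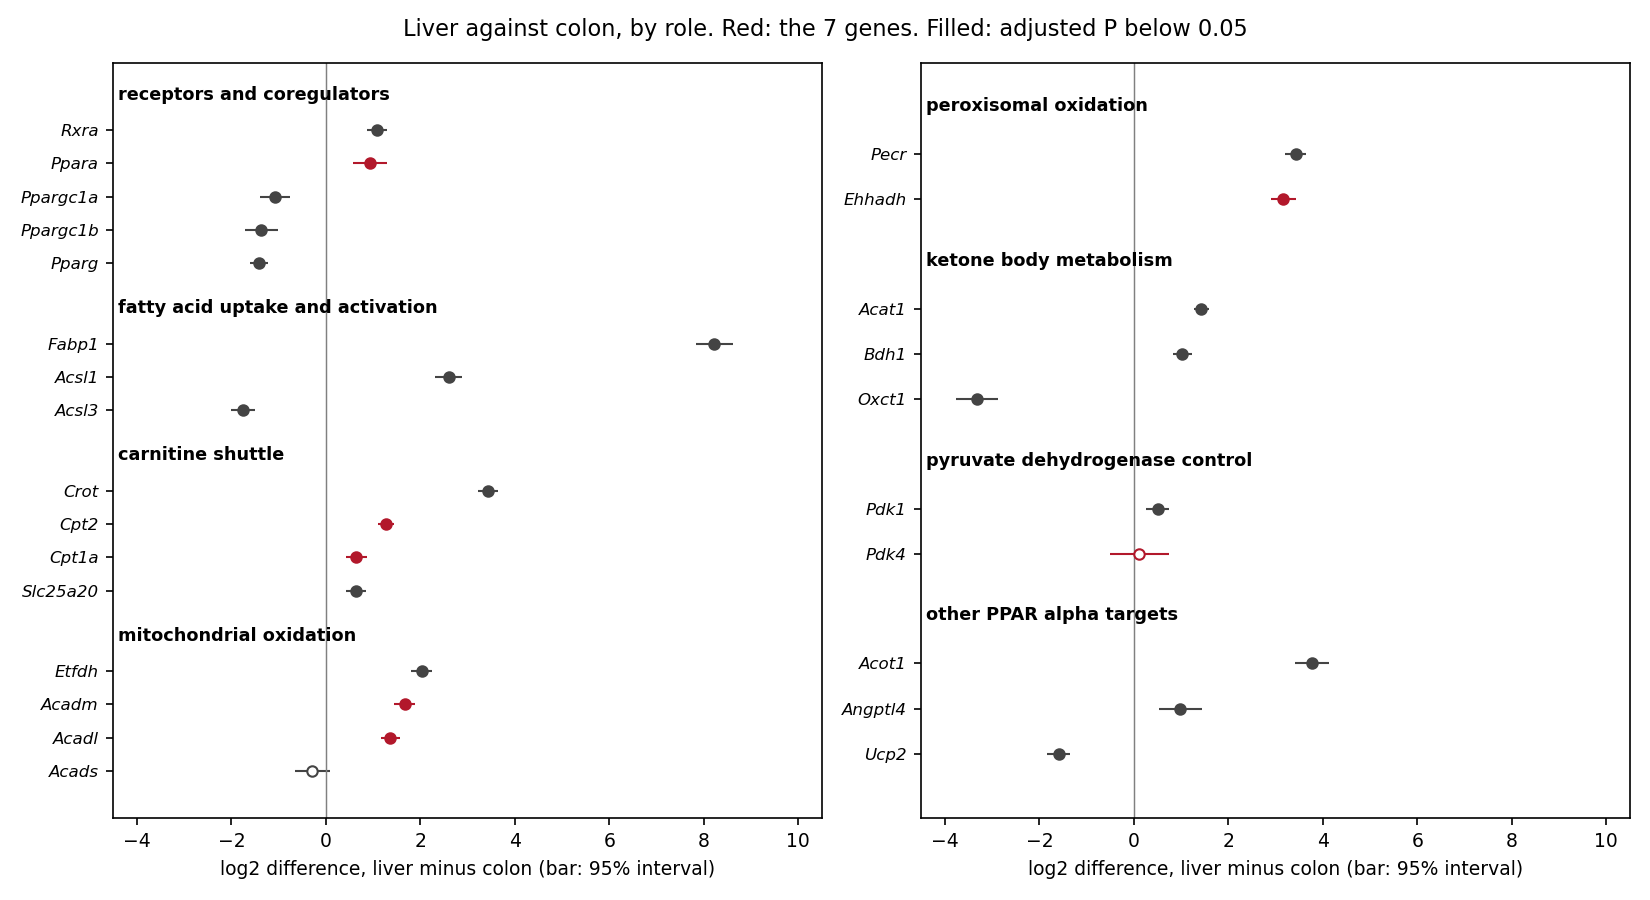
Log2 difference between liver and colon (horizontal axis, bars give the 95% interval) for the 7 genes in red and 19 of the other pathway genes, those with a difference given in the text, in grey, grouped by role, with filled points where the adjusted P was below 0.05. Most points lie to the right of 0, Fabp1 farthest at 8.23, while Oxct1, Acsl3, Ucp2 and several coregulators lie to the left and Pdk4 lies at 0.12.

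The second comparison asked whether the post-weaning diet changed these genes in liver. No called change was found. The study's rule (unadjusted P below 0.01 and a fold above 1.5) called 0 of the 7 genes, against 0.117% of all probes, and no probe passed at an adjusted P below 0.05. At an unadjusted P below 0.05 the counts were 0 of 7 and 0 of 72 for the pathway genes, against 2.13% of all probes. Differences are given as HF-low-suf minus HF-low-low. For the 6 genes other than Pdk4 the 95% interval stayed within 1 log2 unit of 0. Cpt2 differed by 0.01 (-0.24 to 0.26), Acadl by -0.05 (-0.38 to 0.28), Acadm by -0.07 (-0.41 to 0.28), Ppara by 0.05 (-0.52 to 0.62) and Cpt1a by -0.22 (-0.54 to 0.10). The second Cpt1a probe gave -0.39 (-0.97 to 0.20).

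Ehhadh was 1.17 to 1.73 (median 1.21) in the HF-low-low livers and -0.01 to 1.54 (median 1.04) in the HF-low-suf livers, a difference of -0.37 ± 0.23 (P = 0.122, exact permutation P = 0.145). The groups overlapped, and without HF-low-suf replicate 4, the array with the bright reference signal, the difference was -0.18 ± 0.17.

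Pdk4 had the largest diet difference of the 7 in liver and the largest spread. The HF-low-low livers, replicates 1 to 6, were at -2.53, -2.19, -1.32, -2.51, -2.12 and -1.33. The HF-low-suf livers were at -0.61, 2.26, -1.43, -1.32, -1.16 and -2.57. The highest 2 values were both HF-low-suf, yet the lowest was HF-low-suf as well. The difference was 1.19 ± 0.60 (95% interval -0.09 to 2.48, P = 0.0657, exact permutation P = 0.0952). The SD between mice of 1 diet was 1.22 for Pdk4, against a median of 0.26 for all probes well above background in every liver.

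The value of 2.26 belonged to the liver with the highest skeletal muscle genes, and that of -0.61 to the liver with the highest adipose genes. Without the first, the difference was 0.58 ± 0.33 (exact permutation P = 0.162), and without both it was 0.38 ± 0.33 (exact permutation P = 0.4). Without HF-low-suf replicate 6, the lowest liver of all, it was 1.55 ± 0.56 (unadjusted P = 0.0167 in limma, not past adjustment over all probes). On the first scan day (replicates 1 to 3) it was 2.08 (unadjusted P = 0.0397 in limma) and on the second 0.30. In 1 fit of all 24 arrays it was 1.19 ± 0.47 (unadjusted P = 0.0167 in limma). With median centring it was 1.30 ± 0.56 (unadjusted P = 0.0339 in limma). None of these passed adjustment over all probes. Over the 12 livers Pdk4 correlated with the mean of the 8 muscle genes at r = 0.77 (permutation P = 0.0201, adjusted P = 0.281 over 14 relations of the 7 genes to the muscle and adipose lists) and Spearman's rho = 0.43 (permutation P = 0.163). With the most muscle-rich and the most muscle-poor liver left out, r was 0.43 (permutation P = 0.209). Within the HF-low-low mice r was -0.20 and within the HF-low-suf mice 0.91, and on the 2 scan days 0.81 and 0.86. With the adipose genes r was 0.45 (permutation P = 0.0962, adjusted P = 0.673) and rho 0.71 (permutation P = 0.0130, adjusted P = 0.183), and r was 0.77 once the livers of HF-low-low replicate 4 and HF-low-suf replicate 1 were left out (permutation P = 0.00758). All 8 muscle genes were well above background in all livers. Of the 5 adipose genes, Cidec was so in all 12 livers, Cfd in 6, Plin1 in 2, Adipoq in 1 and Lep in none, so the correlations with their mean rest largely on dim signals. The part of muscle or adipose RNA in the Pdk4 difference was not tested.

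**Figure D3:**
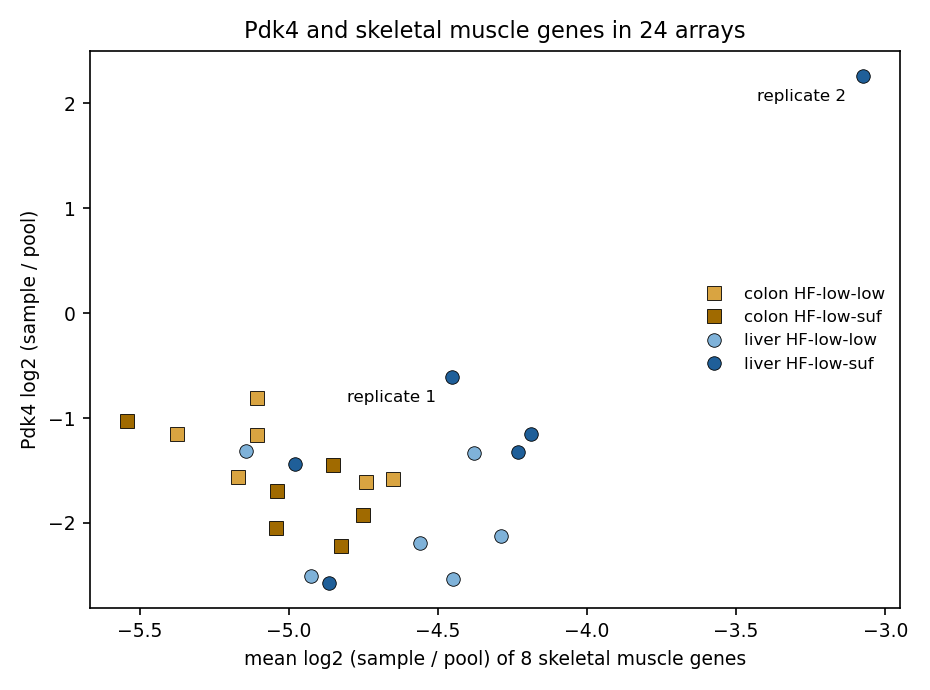
Pdk4 log2 ratio (vertical axis) against the mean log2 ratio of 8 skeletal muscle genes (horizontal axis), 1 point for each of the 24 arrays, colons as squares and livers as circles. The HF-low-suf liver of replicate 2 stands alone at -3.07 and 2.26, and replicate 1, the liver with the highest adipose genes, is next in Pdk4 at -0.61.

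In colon the same rule called 0 of the 7 genes, against 0.168% of all probes, and again no probe passed at an adjusted P below 0.05. At an unadjusted P below 0.05 the count was 0 of 7 and 0 of 72, against 2.98% of all probes. Differences were 0.32 for Ppara (95% interval -0.21 to 0.85), 0.12 for Cpt1a (-0.26 to 0.51), -0.07 for Cpt2 (-0.38 to 0.25), 0.09 for Ehhadh (-0.24 to 0.41), 0.09 for Acadm (-0.25 to 0.42) and 0.05 for Acadl (-0.25 to 0.35). Pdk4 lay at -1.61 to -0.81 (median -1.36) in the HF-low-low colons and at -2.22 to -1.02 (median -1.81) in the HF-low-suf colons. Its difference was -0.41 ± 0.21 (P = 0.0609, exact permutation P = 0.0974), and the groups overlapped. Without HF-low-suf replicate 2 it was -0.55 (exact permutation P = 0.0260). It was -0.41 on the first scan day and -0.42 on the second. In the colons the median of the adipose mean was 3.05 (HF-low-low) and 2.85 (HF-low-suf), and that of the skeletal muscle mean -5.11 and -4.95. The part of muscle or adipose RNA in the colon difference of Pdk4 was not tested.

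The diet difference of Pdk4 was not called in either tissue, and the difference between the tissues was tested itself. The interaction was 1.61 ± 0.60 on the log2 scale (unadjusted P = 0.0133, exact permutation P = 0.0216), and did not pass adjustment over all probes (adjusted P = 0.651). It was the only one of the 7 genes with an unadjusted P below 0.05, a level that 6.43% of all probes reached. Without the mouse of HF-low-suf replicate 2 it was 1.14 ± 0.37 (unadjusted P = 0.00546, exact permutation P = 0.0411, adjusted P = 0.653), and without that of HF-low-suf replicate 6 it was 2.02 ± 0.56 (unadjusted P = 0.00158, adjusted P = 0.628). With median centring it was 1.55 (unadjusted P = 0.00674, not past adjustment). Without HF-low-suf replicates 1 and 2 it was 0.98 (exact permutation P = 0.1). On the first scan day it was 2.50 and on the second 0.72. For the other 6 genes the interaction lay between -0.46 (Ehhadh) and 0.08 (Cpt2). In the livers the median of the adipose mean was -1.05 (HF-low-low) and -0.63 (HF-low-suf), and that of the skeletal muscle mean -4.51 and -4.34. The colon medians are given above. The part of muscle or adipose RNA in the Pdk4 interaction was not tested.

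**Figure D4:**
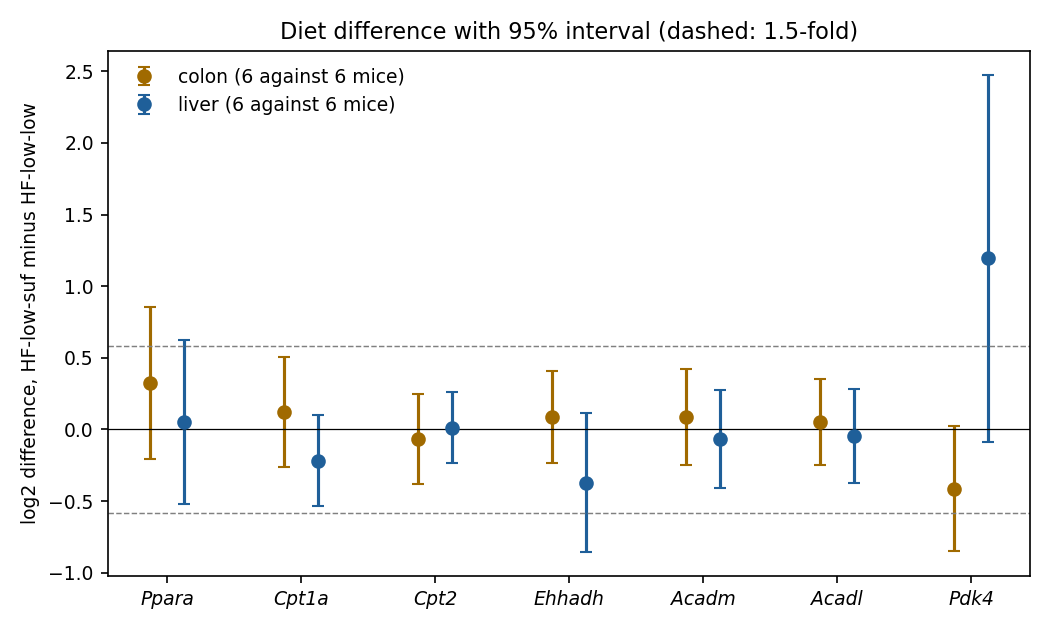
Difference between HF-low-suf and HF-low-low (vertical axis, log2, bars give the 95% interval) for the 7 genes in colon and liver, 6 against 6 mice, with dashed lines at 1.5-fold. All 14 intervals include 0, and the interval for Pdk4 in liver is the widest, from -0.09 to 2.48.

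The last comparison asked whether the genes varied together among the 12 livers. Of the 21 pairs, 2 passed at an adjusted P below 0.05 over the 21 pairs, and 9 had a positive r. The median r was -0.02. For all pairs of 7843 genes well above background in every liver, the median r was 0.01 and the outer deciles -0.53 and 0.56.

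Acadm and Acadl, the 2 acyl-CoA dehydrogenases, had the highest r of the 21 pairs. Their r was 0.80 (permutation P = 0.0025, adjusted P = 0.0262) and Spearman's rho 0.74 (permutation P = 0.00767, adjusted P = 0.0805). With the livers farthest from the Acadm median (2 of 12) left out, r was 0.74 (permutation P = 0.0164). The relation held on both scan days, at 0.997 (exact permutation P = 0.00278) and 0.90 (exact permutation P = 0.0319), with 6 livers each. Within the diets, with 6 livers each, r was 0.87 in HF-low-low (exact permutation P = 0.0597) and 0.66 in HF-low-suf (exact permutation P = 0.143).

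Acadm and Ehhadh gave r = 0.72 (permutation P = 0.00242, adjusted P = 0.0262) and rho = 0.83 (permutation P = 0.00159, adjusted P = 0.0334), and r was 0.66 once the pair of livers farthest from the Ehhadh median was left out (permutation P = 0.0352). Within the diets r was 0.82 in HF-low-low (exact permutation P = 0.0319) and 0.87 in HF-low-suf (exact permutation P = 0.0139). It did not hold on both scan days: r was -0.16 on the first (exact permutation P = 0.876) and 0.97 on the second (exact permutation P = 0.00417). Neither pair kept its call on every set of 11 livers: without HF-low-low replicate 6 the adjusted P was 0.140 for Acadm with Acadl (r = 0.77) and 0.177 for Ehhadh with Acadm (r = 0.66), the highest of the 12 sets. Without HF-low-suf replicate 4, the array with the most flagged spots, it was 0.0768 for both pairs.

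No correlation of Ppara with the other 6 genes passed: its r ranged from -0.40 with Pdk4 to 0.37 with Acadm, and none of its 6 pairs had an unadjusted P below 0.05. Cpt1a and Cpt2, the 2 enzymes of the shuttle, gave r = -0.16 (permutation P = 0.611). Within HF-low-low their r was -0.98 (exact permutation P = 0.00139, not adjusted), and within HF-low-suf 0.57 (exact permutation P = 0.235). It was -0.72 on the first scan day and 0.70 on the second, so the value over all livers joins opposite signs. Whether r differed between diets or days was not tested. The values over the 12 livers depended on the scaling. With median centring r was 0.72 for Ppara with Cpt1a (adjusted P = 0.0318), 0.68 for Ppara with Acadl (adjusted P = 0.0442) and 0.59 for Cpt1a with Cpt2 (adjusted P = 0.0739).

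The same 21 pairs were also computed over the 12 colons, a choice made after the data were seen. There 9 pairs passed. Neither the distribution over all gene pairs nor the other scalings and the sets of 11 mice were run for colon. Ehhadh and Acadm again went together, with r = 0.89 (permutation P = 0.0002, adjusted P = 0.0042) and rho = 0.90, and on both scan days (0.92 and 0.92). Cpt1a followed both Ehhadh (r = 0.83, adjusted P = 0.00997) and Acadm (r = 0.73, adjusted P = 0.0402), and Acadm went with Acadl (r = 0.68, adjusted P = 0.0469). Cpt2 ran against Acadm (r = -0.80, adjusted P = 0.0115), Ehhadh (r = -0.65, adjusted P = 0.0469) and Acadl (r = -0.66, adjusted P = 0.0469). Pdk4 ran against Ppara (r = -0.68) and Cpt1a (r = -0.69), each with an adjusted P of 0.0469. By Spearman's rho 4 pairs passed: Ehhadh with Acadm, Cpt1a with Ehhadh, and Cpt2 with both Ehhadh and Acadm. With the pair of colons farthest from the first gene's median left out, r was 0.83 for Ehhadh with Acadm, 0.67 for Cpt1a with Ehhadh, -0.74 for Cpt2 with Acadm and -0.66 for Ppara with Pdk4, each with an unadjusted permutation P below 0.05. The other 5 pairs no longer reached that level: r was -0.63 for Cpt2 with Ehhadh (permutation P = 0.0511), 0.60 for Cpt1a with Acadm (permutation P = 0.0636), -0.57 for Cpt1a with Pdk4 (permutation P = 0.0863), 0.48 for Acadm with Acadl (permutation P = 0.162) and -0.47 for Cpt2 with Acadl (permutation P = 0.168). The colon arrays of HF-low-low replicate 4 and HF-low-suf replicate 2 had the lowest Cpt1a of their groups (-0.46 and -0.53). Ehhadh was lowest there too (-2.27 and -2.44), and Acadm on the second only. So were the hepatocyte (-4.06 and -4.04), smooth muscle (-0.47 and -0.44) and skeletal muscle means (-5.37 and -5.54). The colon epithelium, adipose, blood and macrophage means were not lowest on both. The part of an array-wide shift in these pairs was not tested. Whether a pair's r differed between the tissues was not tested.

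**Figure D5:**
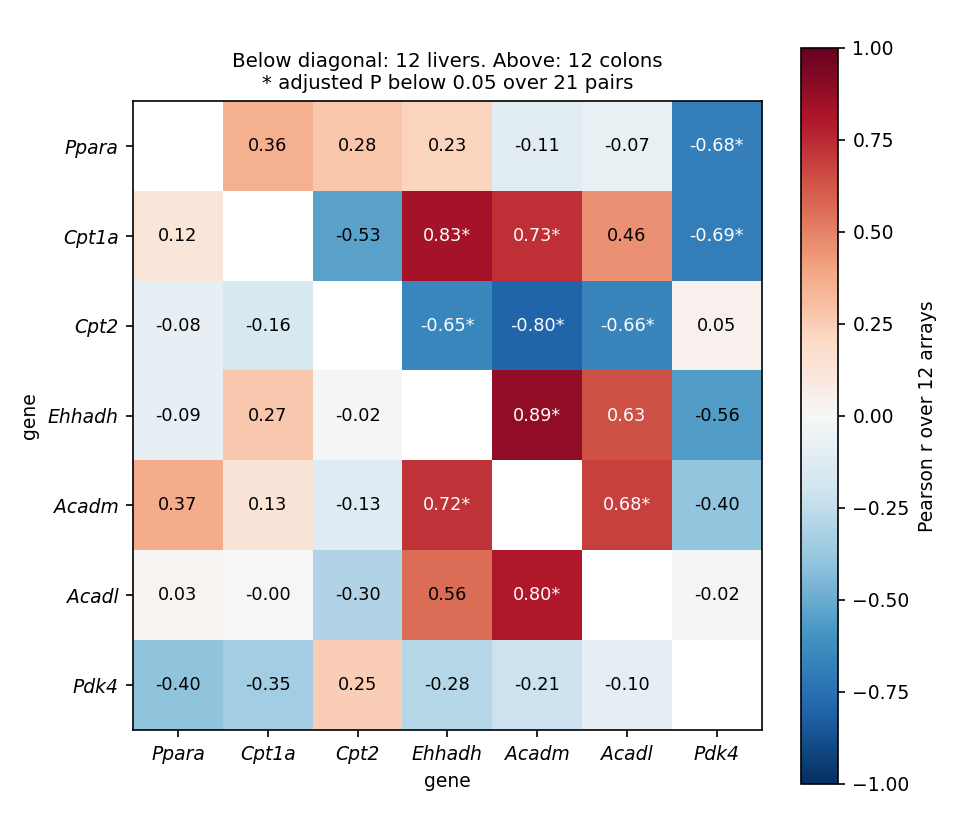
Pearson r for each pair of the 7 genes (both axes name the gene, colour and number give r), over 12 livers below the diagonal and 12 colons above it, with an asterisk where the adjusted P over 21 pairs was below 0.05. Livers have 2 such pairs, both with Acadm, and colons have 9, of which 5 are negative.

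For each gene the genes most like it over the 12 livers were found among 7842 or 7843 others, as a description. The proteasome subunit Psmd4 was among the 2 most like Acadm, with r = 0.92. Stard4, a cholesterol carrier, was most like Ppara at 0.96. Fhl1 and Ldhb, both well known from muscle, were most like Pdk4 at 0.95 and 0.94, and without HF-low-suf replicate 2 these fell to 0.79 and 0.80. Tubb2a and Ppa1 were most like Ehhadh at 0.91 and 0.88, and without HF-low-suf replicate 4 at 0.71 and 0.75. Mov10 and Ranbp10 (0.90 and 0.88) were most like Cpt1a, Smg5 and Tnpo3 (0.88 and 0.87) most like Acadl, and Atp1b3 and Dbi (0.81 and 0.79) most like Cpt2. Dbi encodes the protein that carries acyl-CoA in the cell.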

How the data were processed

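Colon and liver RNA of 12 mice was hybridised to 24 two-colour Agilent whole-genome arrays, on 6 slides that each held 1 array of every group. Per the labels, the sample was labelled with Cy3 and the pool with Cy5, without dye swaps. The deposited intensity values are the authors' Feature Extraction scanner output, not normalized between arrays, and the submitters' processing notes name limma. From the mean and background intensities, limma 3.58.1 in R 4.3.3 gave normexp-corrected signals (offset 50), loess-corrected log2 ratios and probe means, without 1639 control spots of 45018 and outlier spots, leaving 41174 probes. Tissues were compared in 1 fit of 4 group means with mouse as a random block (correlation 0.158). Diets were compared in each tissue with 12 arrays, and the diet by tissue interaction in the 24-array fit. P values were adjusted by Benjamini-Hochberg over all probes. Exact permutation tests used 4096 sign flips for tissues and 924 assignments for diets, and correlations 100000 resamples, all two-sided.

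The members and the gene lists were chosen with earlier results of these data known. Named pathway genes were a set core (among them Acsl1, Slc25a20, Cyp4a14, Fgf21, Angptl4), per role the largest called tissue difference in each direction, those with unadjusted P below 0.05 for diet (none), and the 2 genes most like each member, and a few results this rule gives are not reported here. Acads, Acacb, Acat1, Bdh1, Ppargc1a and Ppargc1b were picked out later, with their values known. Of 73 listed pathway genes 72 were on the array, and of 39 marker genes 37. The blood and macrophage lists averaged -2.95 to -1.54 and -1.34 to -0.04 in colons, and -0.55 to 1.45 and 0.30 to 2.36 in livers, and the smooth muscle list -0.47 to 0.34 in colons and -3.82 to -2.50 in livers. "At least" folds set the bright tissue's mean Cy3 signal against the lowest signal well above background on each array, and are open to dye bias. The number of arrays limits the precision. Arrays of a group correlated between 0.78 and 0.96, so none was a copy. In simulated data with 200 changed probes, fits at this size recovered 96.5% of log2 changes of 2 between diets (of 36748 probes) and 95.5% of log2 changes of 1 between tissues (of 5000 probes). Smaller diet changes, such as the 1.5-fold of the study's rule, were not simulated, so how many of those would be found is not known. Colon and liver arrays with the same number and diet came from 1 mouse per the labels (correlations of their deviations -0.06 to 0.32). A replicate number shared by the diets marks a slide, and correlations of the deviations of same-slide arrays had no constant sign (-0.62 to 0.59 in liver, -0.30 to 0.40 in colon).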

Additional observations from a re-analysis of the deposited data

Results flagged for a closer look

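The diet by tissue interaction of Pdk4 was 1.61 ± 0.60 on the log2 scale (limma, unadjusted P = 0.0133) and did not pass adjustment (adjusted P = 0.651). In liver HF-low-suf exceeded HF-low-low by 1.19 and in colon it lay -0.41 from it.

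Acacb, which makes the malonyl-CoA that blocks Cpt1a, gave an interaction of 0.70 ± 0.32 (unadjusted P = 0.0387, adjusted P = 0.753, exact permutation P = 0.119). A second, dimmer probe was well above background on 1 colon and 1 liver and is not given. The main probe differed between diets by 0.46 ± 0.28 in liver and by -0.24 ± 0.18 in colon. Of 72 other pathway genes it was the 1 with an unadjusted P below 0.05 for the interaction, a level that 6.43% of all probes reached.

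No single array stood apart by Dixon's ratio in any of the 32 sets of 6 arrays (8 probes in 4 groups), although chance alone gives about 1 in 20.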

How the results depend on the processing

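The tissue difference called 6 of the 7 genes under every alternative except median centring (4), and without each mouse in turn it called 6 each time. With mouse as a fixed replicate block or no replicate block it also called 6. At an adjusted P below 0.05, no alternative called any of the 7 genes or the 72 pathway genes for diet or for the interaction, including slide as a replicate block (0 called in each tissue). The pathway genes called higher in liver numbered 46 to 55 and those lower 9 to 13. The processed signals moved the median tissue difference of all probes to -0.19.

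Some values that were not called changed sign by more than their SE. With median centring Pdk4 was -0.29 between tissues and Cpt2 0.0868 between diets in colon. Within scan day 1 the diet difference was 0.14 for Acadl in liver, and -0.11 for Cpt1a, 0.10 for Cpt2 and -0.21 for Acadl in colon, and the interaction was 0.12 for Acadm and 0.35 for Acadl. Pdk4 in liver ranged from 0.58 to 1.55 when single mice were left out (0.58 without HF-low-suf replicate 2, 1.55 without HF-low-suf replicate 6), and was 2.08 within scan day 1 and 0.30 within scan day 2. The causes were not tested.

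The count of correlated pairs in liver, 2 as reported, depended on the processing. It was 1 with plain background subtraction, 0 with the processed signals and 11 with median centring. Within scan day 1 and scan day 2 it was 0, with 6 livers each. It ranged from 0 to 3 when single mice were left out: 0 without HF-low-low replicate 5 or 6 or without HF-low-suf replicate 4 or 6, and 1 without HF-low-low replicate 2 or 3 or without HF-low-suf replicate 5. Acadm with Acadl stayed between 0.71 and 0.997 throughout and kept its call in 12 of 21 settings. Ehhadh with Acadm was -0.16 within scan day 1.

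Pairing by slide in the interaction left Pdk4 at 1.61 (adjusted P = 0.702). At an unadjusted P below 0.01 with a fold above 1.5 no alternative called them for diet, but the Pdk4 interaction passed with median centring and without HF-low-low replicate 6, HF-low-suf replicate 2 or HF-low-suf replicate 6, and that of Acacb with the mean of all probes of a gene. Dim signals limit, among others, Ppard, Cpt1c, Abcd2, Acot2, Acot3, Fgf21, Pdk3 and Cyp4a14.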
